A study of Mus musculus with 6 samples.

Results

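The genes described here are 10 mouse genes of the retinoic acid (RA) pathway, chosen by symbol, of 56748 gene identifiers in the counts: *Aldh1a1* (ENSMUSG00000053279), *Aldh1a2* (ENSMUSG00000013584), *Aldh1a3* (ENSMUSG00000015134), *Rdh10* (ENSMUSG00000025921), *Stra6* (ENSMUSG00000032327), *Cyp26a1* (ENSMUSG00000024987), *Cyp26b1* (ENSMUSG00000063415), *Rarb* (ENSMUSG00000017491), *Crabp1* (ENSMUSG00000032291) and *Crabp2* (ENSMUSG00000004885). Each was measured by bulk RNA-Seq in whole ureters of wildtype NMRI mouse embryos, explanted at E12.5 and kept for 18 h on a membrane in a medium for which the labels list no serum. The medium held 15 mM LiCl, an inhibitor of the kinase GSK3B and thereby an activator of WNT signaling, in 3 samples and water in the 3 control samples. The study used the treatment to ask how ectopic WNT signaling affects the early ureter. The number of ureters per sample is not given in the sources used here. LiCl was added to the medium of the whole explant, so the treatment is not specific to the ureteric epithelium (UE) or the ureteric mesenchyme (UM). Since nothing says that the samples of a group came from separate cultures, the p-values measure the spread between these samples, which may be technical.

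RA is a small signaling molecule that embryos make from maternal vitamin A. Cells take up retinol through the receptor STRA6, oxidize it reversibly to retinal, mostly by RDH10, and irreversibly to RA by the retinal dehydrogenases ALDH1A1, ALDH1A2 and ALDH1A3. The binding proteins CRABP1 and CRABP2 carry RA within the cell, CYP26 enzymes degrade it, and in the nucleus it binds dimers of RAR and RXR receptors on direct repeats in target genes, of which *Rarb* and *Cyp26a1* are classical examples. In the developing ureter, RA signaling is known to hold back differentiation of the UM and UE.

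The promoters of the last pair are shown because they hold a direct repeat to which such receptors can bind. The RefSeq promoter table for GRCm38.p6 matched 7 of the 10 genes, and the 250 bases before each start site were searched on both strands. Searched were pairs of half-sites, each reading AGGTCA (the consensus) or one of its variants, which read AGTTCA with a change inside the half-site, GGGTCA with a change at its start and GGTTCA with both changes, as direct repeats with 5 (DR5), 2 (DR2) or 1 (DR1) bases between them, and the TCF/LEF letters CTTTGAA and CTTTGAT. The *Rarb* promoter lies on the minus strand at chr14:16575477-16575726 and the *Cyp26a1* promoter on the plus strand at chr19:37697558-37697807, both directly upstream of the annotated first exon. They read 5′ to 3′, with the DR5 match in capitals:
Rarb: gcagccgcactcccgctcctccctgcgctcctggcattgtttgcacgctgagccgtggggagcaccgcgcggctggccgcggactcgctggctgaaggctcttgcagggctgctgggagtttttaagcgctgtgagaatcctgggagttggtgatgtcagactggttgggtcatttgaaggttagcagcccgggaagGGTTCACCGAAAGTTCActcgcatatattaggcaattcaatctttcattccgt
Cyp26a1: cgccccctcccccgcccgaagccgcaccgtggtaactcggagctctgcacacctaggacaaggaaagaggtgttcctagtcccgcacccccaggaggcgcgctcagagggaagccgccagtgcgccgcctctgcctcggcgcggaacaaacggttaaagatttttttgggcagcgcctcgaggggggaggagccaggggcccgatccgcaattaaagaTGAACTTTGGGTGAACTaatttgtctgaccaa
In *Rarb* the match read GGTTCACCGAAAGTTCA and ran from base -53 to base -37, counted from the start site. In *Cyp26a1* it ran from base -32 to base -16 and read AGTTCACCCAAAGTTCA on the opposite strand. Of 32851 promoters in the table, 29 (0.0883%) held a DR5 match, 57 (0.174%) a DR2 match and 54 (0.164%) a DR1 match. No other promoter of the 7 matched genes held any of these repeats.

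TCF/LEF factors carry the nuclear output of WNT signaling, and their letters were found upstream of 2 genes, *Aldh1a1* and *Stra6*, in each case at 1 of several annotated start sites. They occurred in 2457 promoters (7.48%). That share is per promoter, and *Aldh1a1* with 2 and *Stra6* with 4 had more promoters searched than the other matched genes, with 1 each. The bases before the more upstream of 2 *Aldh1a1* start sites, on the plus strand at chr19:20492333-20492582, held 2 matches from base -131 and base -88, whereas the other start site held none. At *Stra6*, 1 of 4 start sites, with its upstream bases on the plus strand at chr9:58129099-58129348, held a match from base -145. Both are printed with the matches in capitals, because these genes had higher counts after LiCl:
Aldh1a1: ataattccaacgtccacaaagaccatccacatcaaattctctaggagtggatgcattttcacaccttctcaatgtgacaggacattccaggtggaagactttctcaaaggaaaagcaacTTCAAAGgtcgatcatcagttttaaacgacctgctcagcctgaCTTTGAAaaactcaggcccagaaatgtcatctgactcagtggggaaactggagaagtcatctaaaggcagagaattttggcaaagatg
Stra6: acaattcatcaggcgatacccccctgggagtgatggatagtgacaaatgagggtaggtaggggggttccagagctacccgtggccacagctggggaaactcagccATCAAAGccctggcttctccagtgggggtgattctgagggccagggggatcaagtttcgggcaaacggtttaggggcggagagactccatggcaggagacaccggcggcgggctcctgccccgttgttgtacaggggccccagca
The single promoters listed for *Aldh1a2*, *Cyp26b1* and *Crabp1* held none of the motifs. *Aldh1a3*, *Rdh10* and *Crabp2* had no entry. Binding was not measured, and which start site was used cannot be read from counts per gene.

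After LiCl, *Aldh1a1*, *Aldh1a3* and *Stra6* rose and *Rdh10* and *Cyp26b1* fell, while *Aldh1a2*, *Cyp26a1*, *Rarb*, *Crabp1* and *Crabp2* did not pass the test. All 10 genes passed the filter on low counts and were tested. A gene was called higher or lower at an adjusted p under 0.05 in edgeR's quasi-likelihood test, adjusted over 18188 tested genes. The 3 rises and 2 falls, 50% of the genes, stand beside 43.5% of all tested genes called in either direction, 21.1% higher and 22.4% lower. The share is near that of all genes and shows nothing particular to the pathway. With a log2 fold change beyond 1 as a further requirement, only *Rdh10* was called, as lower. That rule called 2.74% of all tested genes higher and 4.59% lower. The same 5 genes had control and LiCl samples whose FPKM (the deposited level, counts scaled by a size factor and, by its name, by gene length) did not overlap, against 54.3% of all tested genes. The median log2 fold change was -0.17 over the 10 genes and -0.01 over all tested genes.

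**Figure D1:**
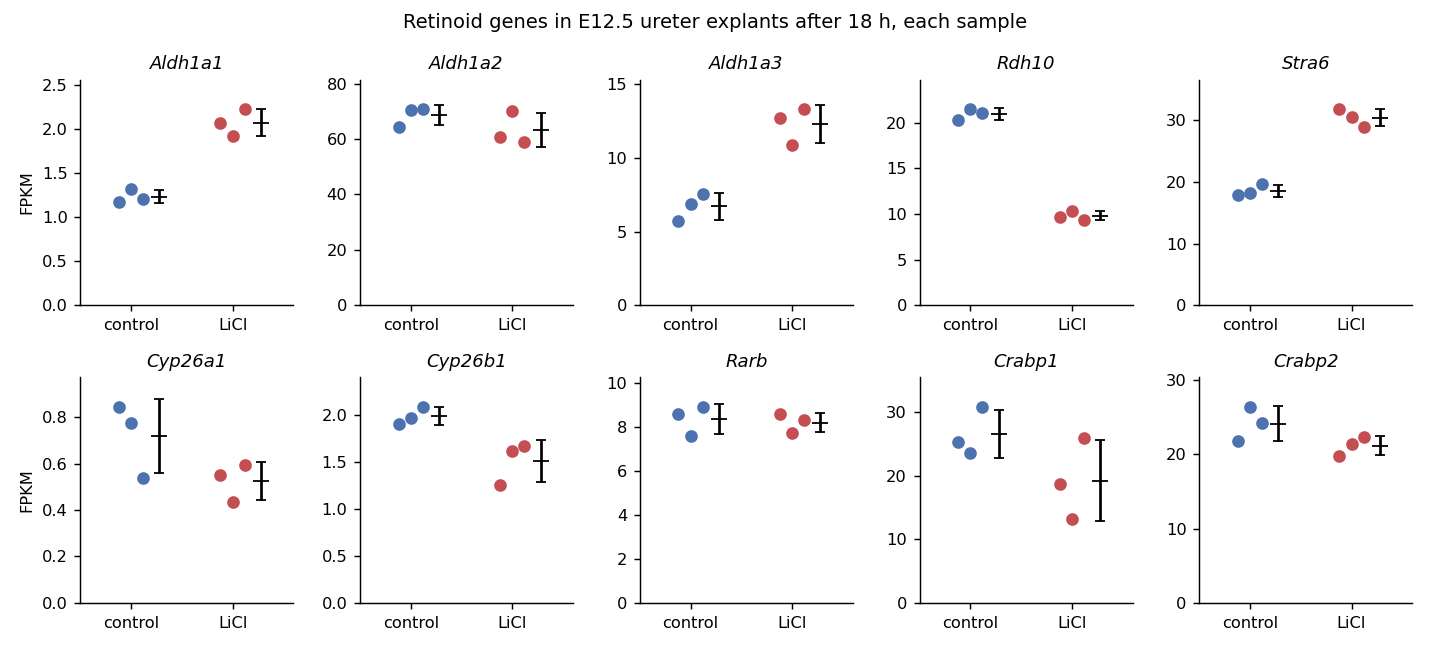
FPKM (y axis, from 0) of the 10 retinoid genes in each control and LiCl sample (points; replicates 1 to 3 from left to right), with the group mean ± SD (n = 3) as a black bar. The groups are apart for Aldh1a1, Aldh1a3, Rdh10, Stra6 and Cyp26b1, and overlap for the other 5 genes.

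Levels between genes are compared as FPKM. In the control samples *Aldh1a2* was by far the highest, at 68.6 ± 3.61 FPKM (SD, n = 3), above 97.36% of the tested genes. It was followed by *Crabp1* (26.6 ± 3.81), *Crabp2* (24.1 ± 2.32), *Rdh10* (21.0 ± 0.616), *Stra6* (18.5 ± 0.949), *Rarb* (8.38 ± 0.678), *Aldh1a3* (6.71 ± 0.935), *Cyp26b1* (1.99 ± 0.0946), *Aldh1a1* (1.23 ± 0.0735) and *Cyp26a1* (0.719 ± 0.161). Of neighbours in this order, only *Crabp1* and *Crabp2* had ranges that overlapped. In the LiCl samples *Stra6* stood directly below *Aldh1a2*, and *Rdh10* stood below *Aldh1a3*. There the ranges of *Crabp2* and *Crabp1*, and of *Crabp1* and *Aldh1a3*, overlapped.

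For uptake, expression of *Stra6*, the membrane receptor that takes up retinol from its carrier RBP4, was higher after LiCl. It measured 17.8, 18.1 and 19.6 FPKM in control replicates 1 to 3 and 31.8, 30.5 and 29.0 FPKM in LiCl replicates 1 to 3. The lowest LiCl sample lay well above the highest control. The counts gave a log2 fold change of 0.70 ± 0.056 (SE; 95% interval 0.57 to 0.83; adjusted p = 1.8e-05, edgeR), a rise of 62.4%.

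The opposite was seen for *Rdh10*, the retinol dehydrogenase of the first oxidation step. Its FPKM was 20.3, 21.5 and 21.1 in the controls and 9.65, 10.4 and 9.39 after LiCl. Replicates of a group differed little, and every LiCl sample was far below every control. *Rdh10* fell by 1.11 on the log2 scale (SE 0.054; 95% interval -1.24 to -0.99; adjusted p = 1.1e-06, edgeR), or by 53.8%, the largest change of the 10 genes. The interval reaches inside the minimum of 1, and in a test against that minimum (glmTreat) *Rdh10* was not called. In the controls *Stra6* and *Rdh10* had similar FPKM, with a ratio of 0.883 ± 0.0428 (SD, n = 3). After LiCl, the ratio was 3.11 ± 0.175, with no overlap between the groups. For such ratios an exact permutation test of 3 against 3 samples cannot give a p below 0.1, so none was run.

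*Dhrs3* encodes a retinal reductase that acts in the reverse direction and whose protein pairs with RDH10. It is not among the 10 genes, but its FPKM also fell, from 26.1 ± 1.68 (SD, n = 3) to 14.0 ± 2.03. All LiCl samples were below all controls (log2 fold change -0.92 ± 0.097 (SE), adjusted p = 9.8e-05, edgeR). The ratio of *Rdh10* to *Dhrs3* was 0.805 ± 0.0377 in the controls and 0.711 ± 0.0952 after LiCl, and the groups overlapped.

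Of the 3 retinal dehydrogenase genes, whose enzymes make RA, *Aldh1a3* and *Aldh1a1* rose and *Aldh1a2* did not pass the test. *Aldh1a2*, known as the main RA-producing enzyme of embryonic mesenchyme, measured 64.4, 70.5 and 70.8 FPKM in the controls and 60.6, 70.1 and 58.9 FPKM after LiCl. LiCl replicate 2 lay among the controls and the other two below them. The log2 fold change was -0.13 ± 0.071 (SE; 95% interval -0.30 to 0.03; adjusted p = 0.16, edgeR), so that the interval of the change ran from -18.5% to 1.82%. The call rested on LiCl replicate 2: without it, *Aldh1a2* was called lower (-0.21, adjusted p = 0.019), and against this sample alone, the highest of the LiCl group, the difference was 0.03 (adjusted p = 0.85).

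*Aldh1a3*, known from epithelia of the urogenital tract, measured 5.70, 6.86 and 7.55 FPKM in the controls and 12.7, 10.9 and 13.3 FPKM after LiCl. The groups were apart, although the controls alone spread from 5.70 to 7.55. The log2 fold change was 0.86 ± 0.10 (SE; 95% interval 0.62 to 1.09; adjusted p = 0.00021, edgeR), a rise of 81.3%.

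*Aldh1a1* was low in every sample, with 1.18, 1.32 and 1.21 FPKM in the controls and 2.07, 1.92 and 2.23 FPKM after LiCl. The groups did not overlap, and the log2 fold change was 0.73 ± 0.10 (SE; 95% interval 0.49 to 0.97; adjusted p = 0.00054, edgeR). Behind these levels stood 170, 203 and 185 counts in the controls and 318, 265 and 309 counts after LiCl.

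The value of *Aldh1a1* has to be read with that of *Aldh1a7*, its close paralog. The coding sequences of both (GENCODE, GRCm38) were identical in 91.7% of the aligned columns, whereas those of *Aldh1a1*, *Aldh1a2* and *Aldh1a3* were identical in 67.3% to 68.7%. Between whole transcripts of *Aldh1a1* and *Aldh1a7* the longest identical run was 100 bases. The control samples held 101, 93 and 50 counts of *Aldh1a7* and the LiCl samples 11, 22 and 17 counts, without overlap, a log2 fold change of -2.22 ± 0.37 (SE; adjusted p = 0.0012, edgeR). The FPKM ratio of *Aldh1a1* to *Aldh1a7* was 1.06 ± 0.440 in the controls and 8.25 ± 3.57 after LiCl, with no overlap. No window of 150 bases, the read length, was identical between their transcripts, but how the authors treated fragments that fit both is not given in the sources used here. With the counts of both genes summed, the log2 fold change was 0.28 (adjusted p = 0.068, edgeR), so the rise of *Aldh1a1* was called only while the genes were kept apart.

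**Figure D2:**
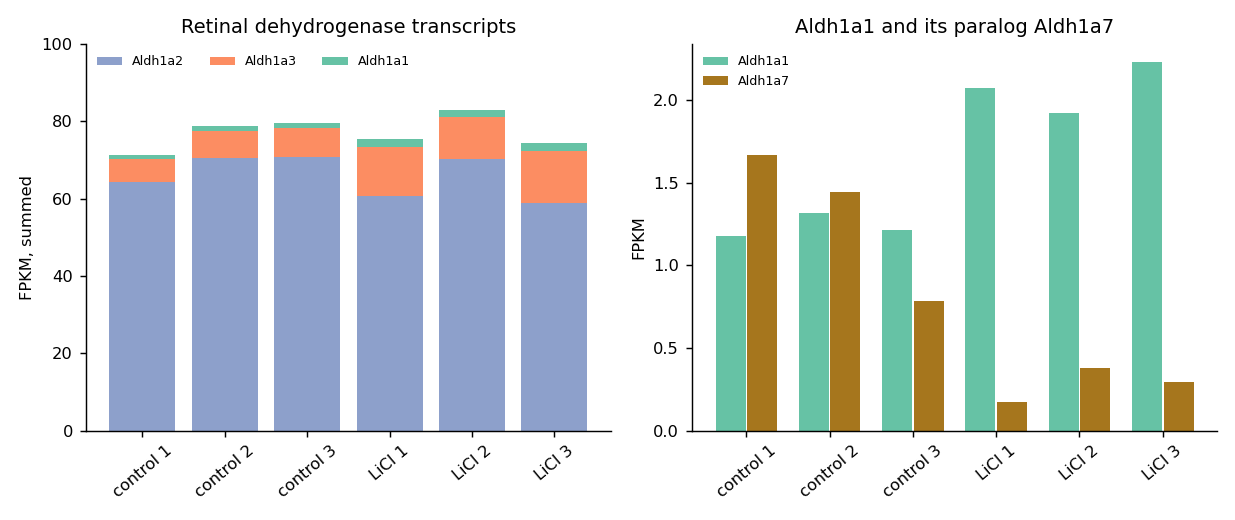
Left, FPKM (y axis, from 0) of Aldh1a2, Aldh1a3 and Aldh1a1 stacked for each of the 6 samples; right, FPKM of Aldh1a1 and Aldh1a7 side by side in the same samples. The stacks are of like height in both groups while the Aldh1a3 part is larger after LiCl, and Aldh1a7 is below Aldh1a1 in every LiCl sample but not in control replicates 1 and 2.

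Summed over the 3 genes, retinal dehydrogenase transcripts measured 76.5 ± 4.55 FPKM (SD, n = 3) in the controls and 77.6 ± 4.66 FPKM after LiCl, and the groups overlapped. Their makeup differed. *Aldh1a2* held 89.6% ± 0.684 of the sum in the controls and 81.3% ± 2.84 after LiCl. The share of *Aldh1a3* was 8.74% ± 0.747 in the controls and 16.0% ± 2.50 after LiCl, and that of *Aldh1a1* was 1.62% ± 0.0812 and 2.69% ± 0.344. None of these shares overlapped between the groups. The ratio of *Aldh1a2* to *Rdh10*, the transcripts of the consecutive oxidation steps, was 3.27 ± 0.0898 in the controls and 6.44 ± 0.284 after LiCl.

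Of the genes for RA-degrading enzymes, *Cyp26b1* fell. It measured 1.90, 1.98 and 2.09 FPKM in the controls and 1.26, 1.62 and 1.67 FPKM after LiCl, without overlap. The log2 fold change was -0.41 ± 0.12 (SE; 95% interval -0.69 to -0.14; adjusted p = 0.022, edgeR). LiCl replicate 1 was the lowest sample, and the call was lost without it (-0.29, adjusted p = 0.052), without control replicate 2 (-0.42, adjusted p = 0.05) and without control replicate 3 (-0.37, adjusted p = 0.08).

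*Cyp26a1* was the lowest of the 10 genes, with 0.844, 0.776 and 0.538 FPKM in the controls and 0.552, 0.433 and 0.592 FPKM after LiCl. Control replicate 3 lay below LiCl replicates 1 and 3. With 24 to 49 counts per sample, the log2 fold change of -0.47 ± 0.25 (SE) had a 95% interval from -1.04 to 0.11 (adjusted p = 0.17, edgeR), which holds both no change and a fall beyond 1. The sum of both genes was 2.71 ± 0.0699 FPKM (SD, n = 3) in the controls and 2.04 ± 0.226 FPKM after LiCl, without overlap. The FPKM ratio of the *Aldh1a* sum to this sum was 28.3 ± 2.18 in the controls and 38.4 ± 4.73 after LiCl, also without overlap. Of the remaining family member, *Cyp26c1*, the control samples held 7, 1 and 7 counts and the LiCl samples 2, 1 and 1 counts, too few to pass the filter.

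*Rarb*, an RA receptor gene that is itself a direct RA target and holds the DR5 match printed first, did not pass the test. It measured 8.59, 7.63 and 8.93 FPKM in the controls and 8.60, 7.73 and 8.33 FPKM after LiCl, so that the ranges nearly coincided. The log2 fold change was -0.05 ± 0.072 (SE; adjusted p = 0.64, edgeR), and its 95% interval of -0.21 to 0.12 corresponds to changes from -13.4% to 8.46%. Without control replicate 3 the value was 0.01. The gene lies opposite *Top2b*, a topoisomerase gene with 8919 to 11080 counts, and 26.2% of the 150-base windows of *Rarb* transcripts (GENCODE, GRCm38) also lie in a gene on the other strand. The library kit keeps strand, but whether the counting used it is not given in the sources used here, so the *Rarb* counts are uncertain.

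The RA-binding proteins gave values below the controls on average that did not pass the test. *Crabp2*, which delivers RA to its receptors, measured 21.8, 26.4 and 24.3 FPKM in the controls and 19.8, 21.4 and 22.4 FPKM after LiCl. Only LiCl replicate 3 lay within the control range (log2 fold change -0.21 ± 0.079 (SE), 95% interval -0.38 to -0.03, adjusted p = 0.059, edgeR). It was called lower without control replicate 1 (-0.27, adjusted p = 0.023), with scaling to library size alone (-0.24, adjusted p = 0.037) and with the replicate number as a block (-0.20, adjusted p = 0.049).

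*Crabp1*, which binds RA in the cytoplasm and is known from neural crest and mesenchyme, varied most among the LiCl samples. It measured 25.3, 23.6 and 30.9 FPKM in the controls and 18.7, 13.2 and 25.9 FPKM after LiCl, a coefficient of variation of 33.1% in the LiCl group. LiCl replicate 3 lay within the control range, and the other two below it. The log2 fold change was -0.48 ± 0.20 (SE; 95% interval -0.94 to -0.02; adjusted p = 0.084, edgeR). It was -0.75 (adjusted p = 0.01) without LiCl replicate 3. The gene was also called lower with the replicate number as a block (-0.52, adjusted p = 0.015) and without the filter on low counts (-0.46, adjusted p = 0.003). Summed FPKM of 6 skeletal muscle genes ranked the LiCl samples in the same order, at 9.69, 1.56 and 20.8 in LiCl replicates 1 to 3. So did the sums of 10 UM markers (684, 647 and 698) and of 7 macrophage markers (31.8914, 31.8881 and 43.0). The other marker lists gave other orders. Among them was the list of neural crest, glia and neurons, at 38.2, 55.6 and 45.0 FPKM in LiCl replicates 1 to 3. The muscle sums were 0.764 to 1.83 in the controls, and were highest in control replicate 2, where *Crabp1* was lowest. The part of the muscle transcripts or of any cell type in this result was not tested.

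**Figure D3:**
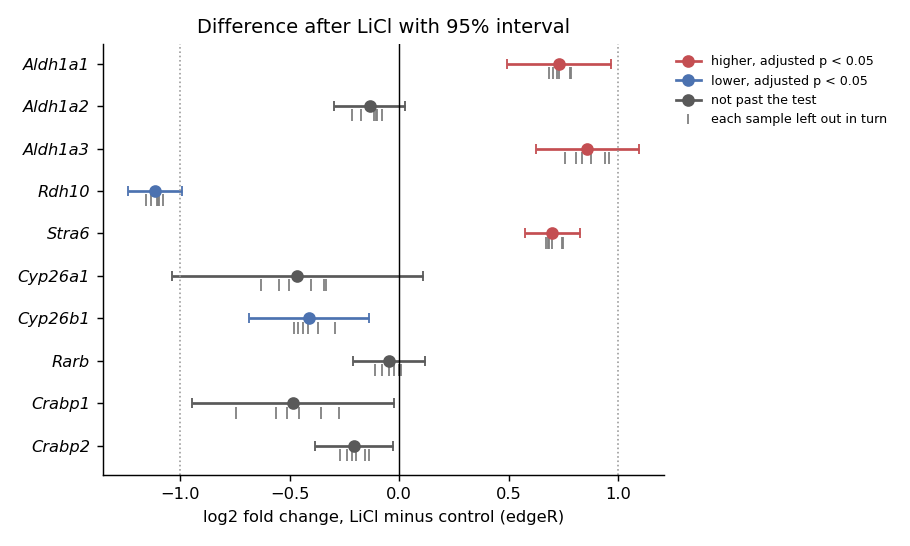
Log2 fold change of the 10 genes, LiCl minus control (x axis), from edgeR's quasi-likelihood test (points) with its 95% interval (bars), coloured by call at an adjusted p under 0.05; grey ticks give the value with each of the 6 samples left out in turn, and dotted lines mark -1 and 1. The ticks of Aldh1a1, Aldh1a3, Stra6 and Rdh10 stay far from 0, whereas those of Crabp1 spread widely and those of Rarb lie on both sides of 0.

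The 3 rises and the fall of *Rdh10* were called at an adjusted p under 0.05 in every alternative tested against no change that kept *Aldh1a1* and *Aldh1a7* apart, leaving out each sample in turn included. LiCl replicate 2 had a muscle sum within the control range, although *Mybpc1* (0.450 FPKM against at most 0.128 FPKM) and *Actn2* (0.254 FPKM against at most 0.179 FPKM) lay above every control. Against this sample alone, the log2 fold changes were 0.63 for *Aldh1a1* (adjusted p = 0.023), 0.69 for *Aldh1a3* (adjusted p = 0.008), 0.72 for *Stra6* (adjusted p = 6e-04) and -1.02 for *Rdh10* (adjusted p = 0.00012). Here the single LiCl sample is assumed to vary like the controls.

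Fewer cells of a type and less RNA per cell cannot be told apart in whole explants. Markers of the labelled tissue were present in every sample and most of them were lower after LiCl, beside 22.4% of all tested genes that fell and 21.1% that rose. Of 14 tested UE markers 12 fell and 1 rose, with sums of 571 to 723 FPKM in the controls and 426 to 454 FPKM after LiCl. The 1 that rose was *Epcam*, from a mean of 56.2 FPKM to 73.7 FPKM (log2 fold change 0.37, adjusted p = 0.00067, edgeR). Among the 12 were uroplakin genes and *Foxa1*, which the paper links to urothelial differentiation. Whether the UE sum follows the amount of epithelium was not tested. Of 10 UM markers 7 fell and none rose, with sums of 846 to 916 FPKM and 647 to 698 FPKM. Of 6 mesothelial markers 4 fell and 1 rose (26.6 to 34.5 FPKM and 12.8 to 14.6 FPKM). Most of that sum came from *Krt7* and *Upk1b*, with control means of 18.0 and 6.92 FPKM, which the urothelium expresses too. *Msln* (log2 fold change -1.22, adjusted p = 0.00093, edgeR) and *Upk3b* (-0.65, adjusted p = 0.024, edgeR) also fell, without overlap between the groups. In contrast, *Wt1* rose (adjusted p = 0.0018, edgeR) and *Lrrn4* did not pass the test. The sum of 5 gonad and mesonephros markers was higher (2.59 to 2.69 FPKM and 3.67 to 4.70 FPKM) through *Star* alone, with means of 1.81 and 3.26 FPKM. None of the other 3 that were tested was called, and *Nr5a1*, a defining gene of that list, was at 0 or near 0 in every sample. The falls of *Rdh10* and *Cyp26b1* thus went with lower sums of UE and UM markers and of a mesothelial list that shares genes with the UE, and the rises of *Aldh1a1*, *Aldh1a3* and *Stra6* went against them. The part of cell composition in these results was not tested.

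The other genes of the pathway were taken from a list of 56 genes, of which 40 were tested. Of these, 2 rose, 20 fell and 18 did not pass the test, so that 55% were called beside 43.5% of all tested genes. With the fold minimum, 4 were lower and none was higher. Their median log2 fold change was -0.21.

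In the group for oxidation and reduction of retinol and retinal, 7 of 11 tested genes (63.6%) fell and none rose, beside 22.4% of all tested genes that fell and 21.1% that rose. Besides *Aldh1a7* and *Dhrs3*, these included *Adh7*, an alcohol dehydrogenase that can oxidize retinol, with only 16 to 59 counts per sample. It measured 0.487, 0.499 and 0.324 FPKM in the controls and 0.162, 0.151 and 0.207 FPKM after LiCl (log2 fold change -1.35 ± 0.27 (SE), adjusted p = 0.0032, edgeR). *Fabp5*, the single gene listed for delivery of RA other than the *Crabp* genes, was also lower (-0.29 ± 0.076 (SE), adjusted p = 0.014, edgeR). Of the catabolic genes only *Cyp2s1* was tested, with a log2 fold change of 0.11 that did not pass.

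The genes of the other RA receptors moved in opposite directions. *Rara* rose, from 13.9, 16.6 and 16.3 FPKM to 19.9, 19.3 and 19.7 FPKM (log2 fold change 0.32 ± 0.065 (SE), adjusted p = 0.0039, edgeR). *Rarg* fell, from 27.7, 29.6 and 26.7 FPKM to 23.3, 22.2 and 22.1 FPKM (-0.33 ± 0.052 (SE), adjusted p = 0.00095, edgeR). Neither overlapped between the groups. In the sum of the 3 receptor genes, 52.0 ± 1.79 FPKM (SD, n = 3) in the controls and 50.4 ± 1.35 FPKM after LiCl, the share of *Rara* was 30.0% ± 1.95 and 39.0% ± 0.486, that of *Rarg* 53.9% ± 2.12 and 44.7% ± 0.534, and that of *Rarb* 16.2% ± 1.72 and 16.3% ± 0.505. The sums and the shares of *Rarb* overlapped, and the shares of *Rara* and *Rarg* did not.

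Of the partner receptors, *Rxra* (-0.03 ± 0.056 (SE), adjusted p = 0.74) and *Rxrb* (-0.07 ± 0.053 (SE), adjusted p = 0.33) did not pass the test in edgeR. *Rxrg*, with 39 to 87 counts per sample, was lower (-0.75 ± 0.23 (SE), adjusted p = 0.025, edgeR), a call that was lost without each of 5 samples in turn, all but LiCl replicate 3 (adjusted p from 0.055 to 0.081). In all, 1 of 12 tested receptor and cofactor genes rose and 3 fell, together 33.3%, a smaller share than the 43.5% called among all tested genes.

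Of 11 tested RA-responsive genes, 8 fell and 1 rose, together 81.8% beside 43.5% of all tested genes, and their median log2 fold change was -0.54. *Stra6*, which rose, and *Rarb* and *Cyp26a1*, which did not pass the test, are known to respond to RA as well. They were counted among the 10 genes instead. *Ecm1*, which encodes a matrix protein, measured 21.6, 24.2 and 25.7 FPKM in the controls and 10.5, 8.58 and 11.7 FPKM after LiCl, with every LiCl sample far below the controls (log2 fold change -1.23 ± 0.11 (SE), adjusted p = 2.8e-05, edgeR). *Rarres2*, which encodes the chemoattractant chemerin, was lower (-1.10 ± 0.17 (SE), adjusted p = 0.00079, edgeR), and so was *Ret*, the receptor tyrosine kinase of the ureteric bud (-0.88 ± 0.12 (SE), adjusted p = 0.00038, edgeR). *Bmp4*, which also stands in the UM list, was among the genes that fell (-0.22 ± 0.048 (SE), adjusted p = 0.0049, edgeR). The marker sums of the UE and UM given before were lower too, and their part in these differences was not tested.

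**Figure D4:**
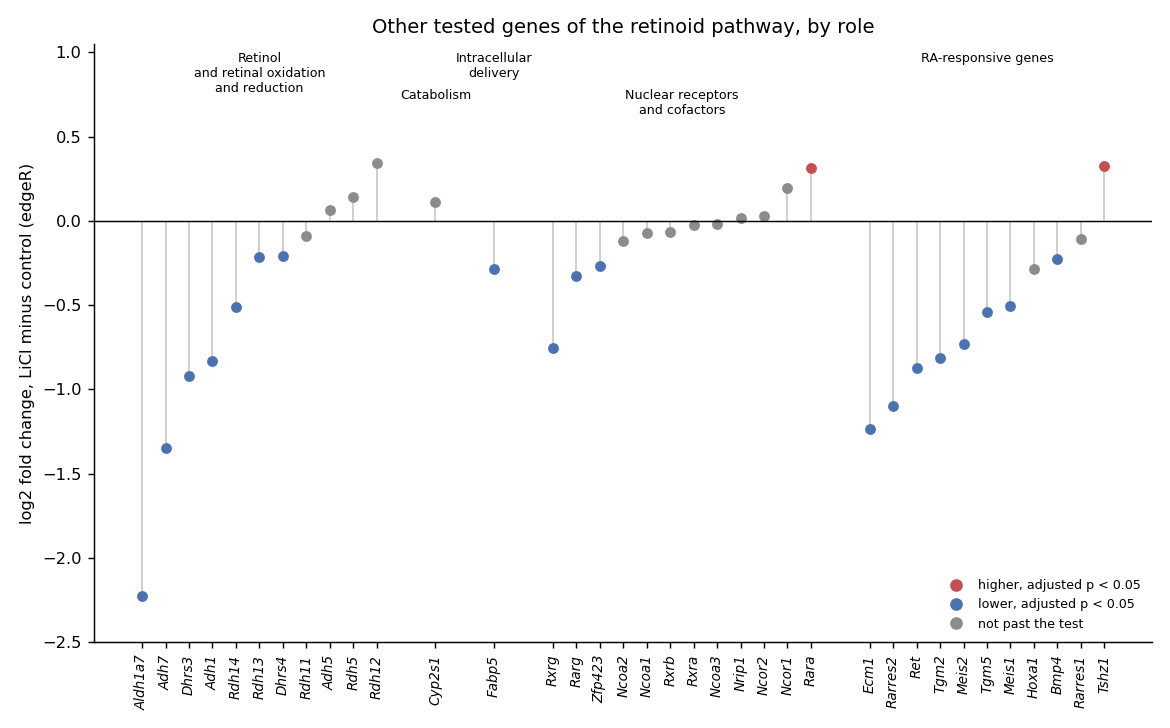
Log2 fold change, LiCl minus control (y axis, edgeR), of 36 other retinoid pathway genes that were tested (those for oxidation and reduction, catabolism, delivery, receptors and cofactors, and RA-responsive genes), grouped by role along the x axis and ordered by value within a role; colour gives the call at an adjusted p under 0.05. The 19 lower genes lie mostly among the enzymes of oxidation and reduction and the RA-responsive genes, and only Rara and Tshz1 are higher.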

How the data were processed

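RNA of E12.5 ureter explants (3 control and 3 LiCl samples, grouped by GEO's labels) was poly-A selected and sequenced from stranded libraries by a provider. The authors deposited raw counts per Ensembl gene, without normalization, made with featureCounts on GRCm39. The paper's methods name HISAT2 as aligner, whereas the submitters' processing notes list STAR 2.7, with fastp 0.23, featureCounts 2.0 and DESeq2 1.40; the strand setting is not given in the sources used here. The authors also deposited FPKM per sample. For genes with a mean above 50 counts, the counts divided by a DESeq2 size factor stood in a constant ratio to FPKM across samples (relative range at most 5.43e-08). Whether that ratio is the gene length was not checked. Total counts were 28473436 to 31266945 per sample, and the 10 genes had 24 to 5755 counts. Symbols came from GENCODE vM21 (GRCm38) for 52073 of 56748 identifiers. Coordinates printed are those of RefSeq promoters on GRCm38.p6, not of the counting.

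The differences rest on the quasi-likelihood F test of edgeR 4.0.16 (R 4.3.3), run on all counts after filterByExpr and TMM scaling, with Benjamini-Hochberg adjustment over 18188 genes (common dispersion 0.00665). The standard error is the coefficient divided by the square root of F. Samples of 1 group differed by more than sampling noise. Sequences were compared with Biopython. The script was tested on simulated counts. The 10 genes, the pathway and marker lists, the motifs and the tests were chosen with earlier results of these data known. Named were all 10 genes, 8 fixed pathway genes, the 3 largest called changes per role and the highest gene of each marker list. *Cyp2s1*, *Tshz1*, *Top2b*, *Bmp4* and the markers *Nr5a1*, *Upk1b*, *Wt1*, *Lrrn4*, *Msln*, *Upk3b*, *Epcam*, *Foxa1*, *Mybpc1* and *Actn2* were added with their values known. 1 gene that the rule names is not reported here. As alternatives, scaling was changed to RLE factors or to library size, the filter was dropped or set to 10 counts in every sample, the replicate number was added as a block, each sample was left out, and DESeq2 1.42.0, glmTreat or limma 3.58.1 replaced the test. With limma, log2(FPKM + 1) and log2(FPKM + 0.1) were tested where the mean FPKM reached 0.5, and log2(FPKM + 1) also in an unfiltered table. The fit without LiCl replicates 1 and 3 and the sum of *Aldh1a1* and *Aldh1a7* were chosen after seeing the data.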

Additional observations from a re-analysis of the deposited data

How the results depend on the processing

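In every alternative tested against no change, the same 3 retinoid genes were called higher (*Aldh1a1*, *Aldh1a3*, *Stra6*), with *Aldh1a1* and *Aldh1a7* kept apart, and *Rdh10* was called lower at an adjusted p under 0.05. The count of lower retinoid genes, 2, was 1 with limma on log2(FPKM + 1) without filter, and ranged from 1 to 3 when each sample was left out, with 1 (*Rdh10*) without control replicate 2, control replicate 3 or LiCl replicate 1. The replicate numbers did not pair the samples (correlations of same-numbered deviations 0.00685, -0.142 and 0.118), and with the replicate number as a block the count was 4, *Crabp1* and *Crabp2* added. With the fold minimum, glmTreat called 0 lower retinoid genes, and without LiCl replicates 1 and 3 together 2 were called (*Rdh10*, *Crabp1*), where the LiCl sample left is the one with the least *Crabp1* and is given the spread of the controls (coefficient of variation of *Crabp1* 14.3% against 33.1% in the LiCl group), so this says nothing on a larger fall. Without these samples, of the other pathway genes 1 was higher and 13 were lower, and of all tested genes 2014 were higher and 2117 lower; fewer samples were fitted. Over all genes with the fold minimum, 498 higher and 835 lower genes became 177 and 141 with limma on log2(FPKM + 1), 171 and 139 with the same without filter, and 172 and 162 with glmTreat, and 430 were lower with limma on log2(FPKM + 0.1). The pseudocount compresses the fold changes of low genes; the cause of the other shifts was not tested.

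The sign turned only for genes near 0: *Aldh1a2* was 0.026 without LiCl replicates 1 and 3 together, *Rarb* ranged from -0.11 to 0.0071 with 1 sample left out, with the last value without control replicate 3, and *Rxra* was 0.0021 without filter and ranged from -0.058 to 0.023 with 1 sample left out, with 0.023 without control replicate 1 and 0.0013 without LiCl replicate 3. *Cyp26b1* also missed the threshold with limma without filter (adjusted p = 0.13) and without LiCl replicates 1 and 3 (adjusted p = 0.16), *Rxrg* with limma without filter (adjusted p = 0.08), and *Rara* without LiCl replicates 1 and 3 (adjusted p = 0.075). Low counts limit *Cyp26a1*, *Aldh1a7*, *Adh7* and *Rxrg*, and 16 of the 56 other pathway genes could not be tested.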

Other observations

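The genes with the highest mean FPKM of the marker lists give the cellular setting of the retinoid values; of all tested genes, 21.1% rose and 22.4% fell. *Krt8* of the UE fell (187, 161 and 134 FPKM in control replicates 1 to 3; 113, 106 and 105 FPKM in LiCl replicates 1 to 3; adjusted p = 0.0017, edgeR), and so did *Col1a1* of the UM (421, 373 and 388 FPKM against 309, 270 and 329 FPKM; adjusted p = 0.0021) and *Krt7* of the mesothelial list, which the urothelium is also known to express (19.3, 18.7 and 16.0 FPKM against 6.28, 5.63 and 5.79 FPKM; adjusted p = 1e-06). *Star*, a gene of steroid-producing cells, rose from 1.86, 1.78 and 1.78 FPKM to 3.59, 3.20 and 2.99 FPKM (adjusted p = 0.0002).

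*Mylpf* of skeletal muscle was called higher (adjusted p = 0.025, edgeR), with 3.24, 0.572 and 7.10 FPKM after LiCl against 0.450, 0.845 and 0.791 FPKM in the controls, so that LiCl replicate 2 lay among the controls. All 6 muscle markers were called higher, but only 2 of them, *Actn2* and *Mybpc1*, had groups that did not overlap in FPKM. Of 5 tested erythroid markers 2 were called higher, among them *Hba-a1* (adjusted p = 0.031, edgeR), whose groups overlapped. *Foxd1* of the kidney stroma, *Cdh5* of endothelium, *C1qa* of macrophages and *Tubb3* of neurons did not pass the test (adjusted p = 0.1, 0.13, 0.12 and 0.12). Of 7 nephron and kidney markers 2 rose and 3 fell, of 4 tested gonad and mesonephros markers 1 rose, of 6 endothelial markers 1 fell, of 7 macrophage markers 1 rose and 4 fell, and of 6 neural markers none was called. *Upk1b* and *Wt1* each stood in 2 lists.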
